A study of Mus musculus with 4 samples.

Results

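The genes described here are those that encode the nuclear part of the oxidative phosphorylation system, taken from the deposited CPM values (reads scaled by library size) as every symbol that begins with Nduf, Uqcr, Cox4 to Cox8 or Atp5, together with Sdha, Sdhb, Sdhc and Sdhd. This pattern found 89 of the 17013 genes listed, of which 45 belonged to complex I, 4 to complex II, 8 to complex III, 15 to complex IV and 17 to complex V. The pattern goes by name and also takes in at least 10 genes that do not encode a subunit of the complex they were counted with. Those set apart here are the 7 Ndufaf genes, which encode assembly factors of complex I, and Cox7a2l, Atp5s and Atp5sl.

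The cells were wild-type mouse bone marrow-derived macrophages, grown out with M-CSF, seeded on porous inserts and harvested after 24 h. Both groups received artificial necrotic bone fluid (aNBF), made from freeze-thawed bone, above the cells. Below them was medium made from collagenase-digested, freeze-thawed abdominal fat, either its middle layer (Con) or its top, fat-rich layer (Fat). Polyadenylated RNA was sequenced in 4 libraries, 2 from Con and 2 from Fat, and the comparison of the groups asks how uptake of necrotic fat changes the macrophage. The labels give no age and do not say whether the replicates came from separate mice or cultures, so the p-values measure only the spread between these libraries, which may be technical.

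Mitochondria make most of the ATP of a resting cell through 5 protein complexes of their inner membrane. Complex I (NADH dehydrogenase) and complex II (succinate dehydrogenase, which is also an enzyme of the citric acid cycle) pass electrons to ubiquinone, complex III hands them on to cytochrome c, and complex IV (cytochrome c oxidase) passes them to oxygen. Complexes I, III and IV pump protons, and complex V (ATP synthase) uses the proton gradient to make ATP. In macrophages this system is known to differ with activation, with inflammatory activation linked to glycolysis and alternative activation to respiration of fatty acids. Of 26 symbols searched for subunits that the mitochondrial genome encodes, 0 were listed, so these subunits were not analysed here.

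Where a pair of values is given for a medium, replicate 1 comes first and replicate 2 second. The libraries held from 33573852 to 40785872 reads, and 1 read stood for 0.0244 to 0.0295 CPM. Genes with at most 3 reads in a library counted as undetected there, a limit that covers counting error only because the reads carry no molecular identifiers. Lyz2, the lysozyme gene of macrophages, was at 28721 and 26819 CPM in Con and 21516 and 20347 CPM in Fat. All 9 of the macrophage markers that were listed passed the filter given below. In 5 of them both Fat libraries lay below both Con libraries and in 0 above, and 2, Fcgr1 and Mertk, were called lower. Of all tested genes, 26.2% lay below in this way and limma called 5.0% lower. Of 5 neutrophil markers 4 lay below and 0 above, and of 6 fibroblast markers 4 lay below and 0 above. Of 5 endothelial markers 1 lay below and 2 above. Limma called lower 0 of 5 tested neutrophil markers, 1 of 5 tested fibroblast markers and 1 of 3 tested endothelial markers, and called 0 higher. The sum of the macrophage markers, most of it Lyz2, was 35179 and 33247 CPM in Con and 27858 and 26402 CPM in Fat. Because the samples are bulk RNA, fewer cells of a type and less RNA per cell cannot be told apart.

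Most members were expressed at a high level, and for the gene with the highest level in each complex the absolute log2 fold change between the media was at most 0.13. Levels of different genes are compared here as TPM, the deposited values that are also scaled for gene length, averaged over the 4 libraries. The highest was that of Cox4i1, the gene of the common form of cytochrome c oxidase subunit 4, at 886.8 TPM. It was followed by Atp5b, the catalytic beta subunit of ATP synthase, at 796.2 TPM, while Uqcrh, the hinge protein of complex III, was at 559.5 TPM. Ndufa4, counted by its name with complex I although its protein is found in complex IV, was at 522.6 TPM. Sdhd, a membrane anchor of succinate dehydrogenase, was at 304.1 TPM. The median member of complexes I to V was at 90.2, 218.3, 160.2, 242.9 and 220.9 TPM, in that order.

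Cox4i1 was at 273.6 and 279.6 CPM in Con and 274.3 and 271.9 CPM in Fat. Atp5b was at 662.3 and 700.4 CPM in Con and at 687.3 and 681.4 CPM in Fat. Uqcrh was at 138.5 and 139.4 CPM in Con and at 138.7 and 141.0 CPM in Fat. For all of these genes the Con and Fat libraries overlapped. Their log2 fold changes, Fat against Con, were -0.02 for Cox4i1 (95% interval -0.14 to 0.10), 0.01 for Atp5b (-0.14 to 0.15) and 0.01 for Uqcrh (-0.11 to 0.13), with limma adjusted p-values between 0.876 and 0.968. The sign of Cox4i1 turned with the TPM values, and that of Atp5b after rescaling by median ratios. In the other complexes both Fat libraries of the leading gene lay below both Con libraries. Ndufa4 was at 118.7 and 119.6 CPM in Con and 113.6 and 117.6 CPM in Fat (log2 fold change -0.04, 95% interval -0.17 to 0.08), and Sdhd is described with complex II.

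The 300 bases around the start of transcription (250 before it and 50 after it) were read from RefSeq's windows for mouse genome GRCm38.p6 and matched by symbol, which gave 76 windows for 71 of the 89 members. Genes of this system are known for promoters bound by the factors NRF1, GABP (an ETS factor) and YY1, so 3 short motifs were searched on both strands. These were GCGCANGCG for NRF1, CCGGAAGT for ETS factors and AAGATGGCG for YY1, none of which contains another. The NRF1 motif was in 23 of the members' windows (30.3%), against 6.25% of all 32851 windows and 13.1% of the 11952 windows of genes that were tested. The YY1 motif was in 7 (9.21%), against 1.40% and 2.98%, and the ETS motif in 5 (6.58%), against 3.89% and 7.91%. A match describes these letters only. The windows of 5 members are printed 5′ to 3′ in the sense of the gene, with motif matches in capitals. Those of Atp5g3, Uqcrh and Atp5j2 belong to the member with the highest level among those whose windows hold the NRF1, ETS and YY1 motif, and those of Cox7a2 and Cox7a1 to the major and the minor isoform of a subunit described further on, neither of which held a match. They lie at chr2:73911277-73911576 (minus strand, Atp5g3), chr4:116075021-116075320 (minus strand, Uqcrh), chr5:145191492-145191791 (minus strand, Atp5j2), chr9:79759804-79760103 (minus strand, Cox7a2) and chr7:30183921-30184220 (plus strand, Cox7a1).
Atp5g3: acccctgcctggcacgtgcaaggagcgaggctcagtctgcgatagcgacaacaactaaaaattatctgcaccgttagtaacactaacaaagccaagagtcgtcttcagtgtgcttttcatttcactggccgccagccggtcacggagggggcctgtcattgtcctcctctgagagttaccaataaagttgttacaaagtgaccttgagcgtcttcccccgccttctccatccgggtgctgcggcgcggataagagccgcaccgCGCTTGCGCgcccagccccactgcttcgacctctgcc
Uqcrh: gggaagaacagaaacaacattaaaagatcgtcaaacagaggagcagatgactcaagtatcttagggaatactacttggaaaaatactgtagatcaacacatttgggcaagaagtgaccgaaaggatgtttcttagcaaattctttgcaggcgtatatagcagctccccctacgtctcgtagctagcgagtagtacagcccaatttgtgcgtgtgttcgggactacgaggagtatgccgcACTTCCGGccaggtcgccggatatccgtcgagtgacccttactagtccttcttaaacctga
Atp5j2: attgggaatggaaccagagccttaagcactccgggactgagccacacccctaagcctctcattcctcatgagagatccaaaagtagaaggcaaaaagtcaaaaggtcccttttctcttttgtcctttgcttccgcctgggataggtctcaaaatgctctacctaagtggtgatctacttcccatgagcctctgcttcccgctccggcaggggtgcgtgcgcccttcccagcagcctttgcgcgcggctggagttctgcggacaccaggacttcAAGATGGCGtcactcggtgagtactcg
Cox7a2: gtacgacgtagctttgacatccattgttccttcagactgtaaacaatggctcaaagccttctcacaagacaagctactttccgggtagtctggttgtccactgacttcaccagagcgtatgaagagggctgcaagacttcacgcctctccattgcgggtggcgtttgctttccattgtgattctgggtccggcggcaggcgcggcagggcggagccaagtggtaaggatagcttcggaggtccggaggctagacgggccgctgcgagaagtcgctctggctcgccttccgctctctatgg
Cox7a1: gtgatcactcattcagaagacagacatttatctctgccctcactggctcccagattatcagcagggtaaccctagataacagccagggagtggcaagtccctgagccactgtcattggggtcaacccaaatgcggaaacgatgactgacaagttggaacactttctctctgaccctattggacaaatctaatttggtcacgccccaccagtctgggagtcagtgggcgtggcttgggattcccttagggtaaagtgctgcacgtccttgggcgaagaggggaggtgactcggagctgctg

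Of the 89 members, 85 reached 0.5 CPM or more in 2 or more libraries and were tested with limma on log2(CPM + 0.1) together with all 12470 genes that did so, with Benjamini-Hochberg adjustment over all of them. None was called at an adjusted p-value under 0.05, 0 higher and 0 lower in Fat, where 9.0% of all tested genes were called, 3.99% as higher and 5.0% as lower. edgeR's quasi-likelihood test on the recovered reads also called 0 members, against 9.13% of all genes (3.93% higher, 5.20% lower). DESeq2 called 0 members, against 8.43% (3.66% higher, 4.77% lower). At an unadjusted limma p-value under 0.05, 3 members were higher (Ndufs5, Cox7a1 and Atp5l) and 3 lower (Ndufs4, Ndufs3 and Sdhb), 6 of 85 against 24.1% of all tested genes (11.8% higher, 12.4% lower). Atp5l passed the filter through its Fat libraries alone, so its direction was fixed by the filter. The smallest adjusted p-value of a member was 0.0965, for Ndufs4. A few settings called members. Leaving out Fat replicate 1 gave 3 called higher, Cox5b, Cox8a and Ndufa6, and 0 lower, where 8.19% of all genes were called (3.5% higher, 4.68% lower). The TPM values gave 1 called higher, Cox7a1, and 0 lower, against 6.34% of all genes (3.41% higher, 2.94% lower). With the replicate number as a block, limma called 3 higher, Cox5b, Ndufa6 and Ndufs5, and 1 lower, Ndufs4, against 20.2% of all genes (10.2% higher, 9.96% lower). edgeR with the same block, a setting chosen after seeing the data, called 3 higher and 3 lower, Sdhb and Ndufs3 besides Ndufs4, against 22.3% of all genes (11.1% higher, 11.2% lower).

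The median log2 fold change of the 85 members was 0.00, with 43 above and 42 below 0, and that of all tested genes was 0.01. In 77 members (90.6%) the 95% interval of the fold change lay within 1.5-fold in either direction, which held for 76.2% of all tested genes. The other 8 were Ndufaf6, Uqcrq, Cox5b, Cox6b2, Cox7a1, Cox7c, Atp5l and Atp5s. Among the 76 members with a mean of at least 5 CPM the share was 97.4%, against 90.2% of all genes at that level. The absolute log2 fold change was under 0.1 in 58 members (68.2%), against 44.5% of all tested genes. Both Fat libraries lay above both Con libraries in 9 of the 85 members and below them in 18, 27 of 85 in all, while 29.4% and 26.2% of all tested genes did so, 55.6% in all. A p-value that misses the threshold does not show that a gene is the same in both media, and the intervals give the changes that these libraries leave possible. For single values, the smallest two-sided p-value that exact permutation of 2 against 2 libraries can give is 0.333.

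**Figure D1:**
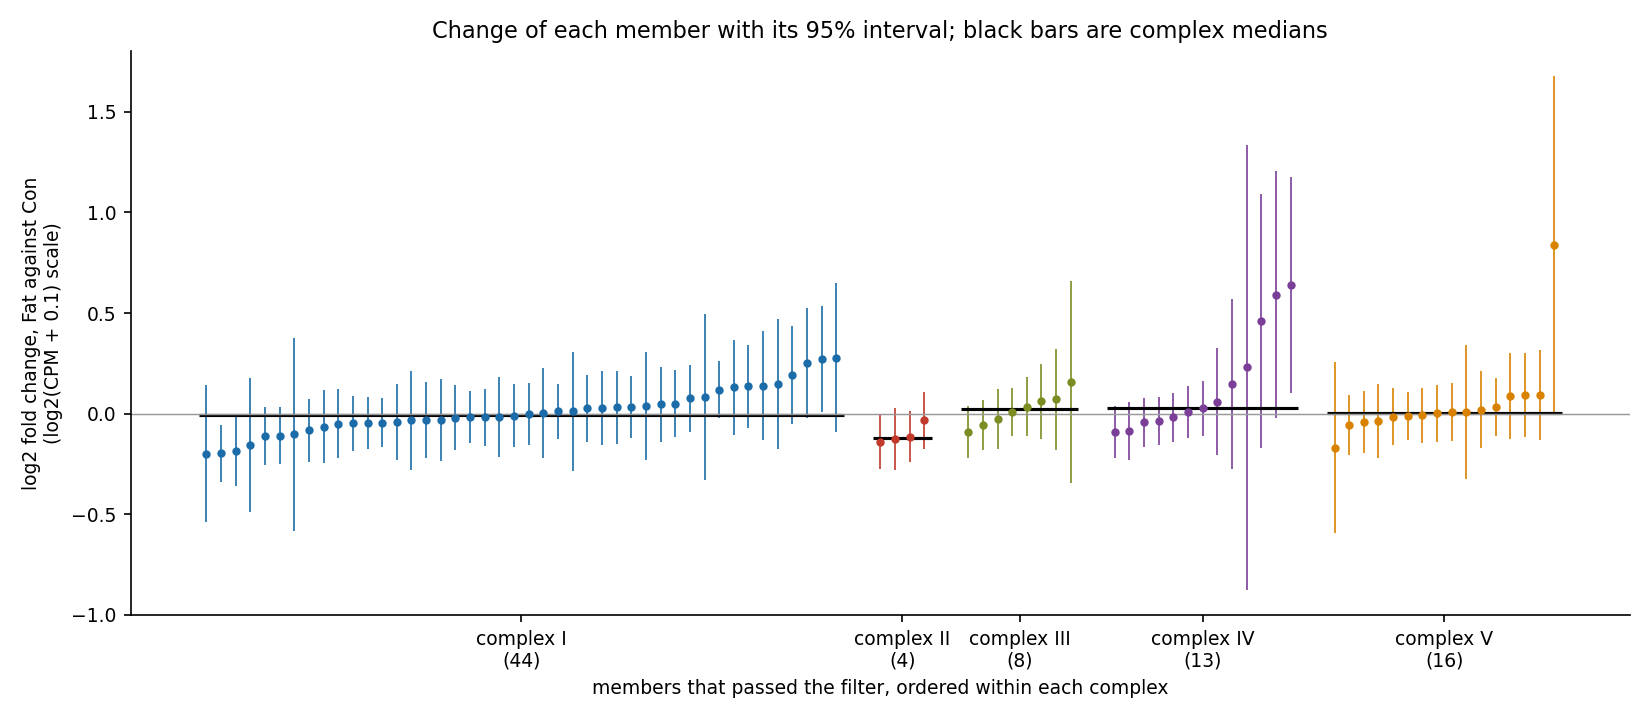
Log2 fold change of Fat against Con for each of the 85 tested members (points) with its 95% limma interval (vertical lines), ordered by size within complexes I to V (horizontal axis); the number of members is in brackets and the black bar is the median of the complex. Most points lie close to 0, the 4 complex II genes all lie below it, and the widest intervals belong to low-level members such as Atp5l and Cox6b2.

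Complex I is built around a core of 7 nuclear-encoded catalytic subunits that carry its flavin and iron-sulfur clusters. Their log2 fold changes lay between -0.18 and 0.08, with a median of -0.02. The other 30 tested subunits had a median of -0.02 and lay between -0.20 and 0.27, and all of their 95% intervals were within 1.5-fold. The 7 assembly factors had a median of 0.13 and lay between -0.20 and 0.28. Both Fat libraries lay above both Con libraries in 3 of the 7, and in 29.4% of all tested genes. None of these genes was called.

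The largest absolute difference in complex I by limma was that of Ndufaf6, an assembly factor at a low level, with 2.77 and 2.53 CPM in Con and 3.0 and 3.49 CPM in Fat. The Fat libraries were both higher, on average by 0.28 on the log2 scale (standard error, SE, 0.16, limma adjusted p = 0.338). Ndufs5, an accessory subunit, was at 10.5 and 11.6 CPM in Con and 12.2 and 14.6 CPM in Fat, again without overlap (log2 fold change 0.27, SE 0.11, limma adjusted p = 0.197). In the Ndufs5 transcript, 56.0% of stretches of 75 bases were also found in another gene's transcripts. Ndufs4, an accessory subunit known from inherited complex I deficiency, was at 49.4 and 49.8 CPM in Con and 42.0 and 44.6 CPM in Fat. Its Fat libraries were both lower, with a log2 fold change of -0.20 (SE 0.06, 95% interval -0.34 to -0.05). The catalytic subunit Ndufs3 was at 29.8 and 30.6 CPM in Con and at 25.2 and 28.0 CPM in Fat (log2 fold change -0.18, limma adjusted p = 0.186), and shared 73.3% of its stretches with other transcripts. Ndufs4, Ndufs3, Cox5b, Ndufs7, Ndufa6, Atp5h, Uqcrb and Ndufab1 fall outside the rule for named genes and were chosen after their values were seen.

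Complex II was the complex with the lowest median, -0.12 on the log2 scale, and the log2 fold changes of all 4 of its genes were below 0. Of all 12470 tested genes, 5790 were below 0. Sdha encodes the flavoprotein that oxidizes succinate and was at 255.2 and 262.5 CPM in Con and 242.9 and 235.6 CPM in Fat. Sdhb, the iron-sulfur subunit, was at 108.5 and 110.1 CPM in Con and 95.7 and 102.6 CPM in Fat. Sdhd, one of a pair of membrane anchors, was at 189.4 and 182.7 CPM in Con and 180.1 and 161.4 CPM in Fat. For these genes both Fat libraries were below both Con libraries, which held for 26.2% of all tested genes. The other anchor, Sdhc, was at 117.2 and 126.6 CPM in Con and 121.3 and 116.8 CPM in Fat, and overlapped.

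The log2 fold changes were -0.11 for Sdha (95% interval -0.24 to 0.01), -0.14 for Sdhb (-0.28 to -0.01), -0.13 for Sdhd (-0.28 to 0.03) and -0.03 for Sdhc (-0.17 to 0.11), with limma adjusted p-values of 0.249, 0.187, 0.303 and 0.782. The summed level of the 4 genes was 670.3 and 681.9 CPM in Con and 640.0 and 616.4 CPM in Fat, so the Fat sums were both lower. The median was -0.09 with the TPM values, -0.07 with the GC and length fit removed and -0.07 without Fat replicate 2, and Sdhb was called by edgeR with the replicate block (adjusted p = 0.0488). The summed macrophage markers given above were also lower in both Fat libraries, and their part in the complex II values was not tested.

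Complex III had a median log2 fold change of 0.02 over its 8 genes, which lay between -0.09 and 0.16, and its interval for each gene but Uqcrq was within 1.5-fold. Uqcrc2, a core protein of the complex, was at 122.9 and 125.9 CPM in Con and 119.6 and 113.9 CPM in Fat, lower in both Fat libraries (log2 fold change -0.09, limma adjusted p = 0.364). In the longest Uqcrc2 mRNA, 23.8% of the stretches were shared. Uqcrq, a small ubiquinone-binding subunit, was at 26.8 and 35.4 CPM in Con and 27.1 and 43.7 CPM in Fat. Its second replicate was the higher one in each medium, and the groups overlapped (log2 fold change 0.16, SE 0.22, limma adjusted p = 0.708).

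In complex IV several subunits exist as a common form and a form restricted to certain tissues, such as muscle, brown fat, lung or testis, and the common forms prevailed in these cells. Cox4i2, the form of Cox4i1 known from lung and hypoxia, was close to the limit of detection, with 1 and 3 reads in Con and 3 and 4 reads in Fat. Cox6a1 was at 304.4 TPM and Cox6a2, the heart and muscle form, at 0.999 TPM. Cox6a2 had 12 and 19 reads in Con and 3 and 11 reads in Fat, lower in both Fat libraries (0.354 and 0.506 CPM against 0.0804 and 0.268 CPM), and was under the filter, so it was not tested. Cox6b1 was at 678.7 TPM and Cox6b2, the testis form, at 1.79 TPM. For the subunit 7a, Cox7a2 was at 305.8 TPM and Cox7a1, the form of muscle and brown fat, at 5.88 TPM. The HIF-induced Ndufa4l2, a relative of Ndufa4, had 1, 11, 9 and 4 reads in Con replicates 1 and 2 and Fat replicates 1 and 2, and was under the filter. In complex IV, 9 of the 13 tested members (69.2%) had a 95% interval within 1.5-fold, against 76.2% of all tested genes. The common forms named in this paragraph had small log2 fold changes. Cox6b1 had a log2 fold change of -0.03 (95% interval -0.16 to 0.09), Cox7a2 one of -0.04 (-0.16 to 0.08), Ndufa4 one of -0.04 (-0.17 to 0.08) and Cox6a1 one of 0.06 (-0.21 to 0.33). Cox7a2l, a relative of the 7a subunits that helps to join complexes III and IV, was at 102.0 and 97.3 CPM in Con and 94.8 and 92.1 CPM in Fat (log2 fold change -0.09, 95% interval -0.22 to 0.04).

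**Figure D2:**
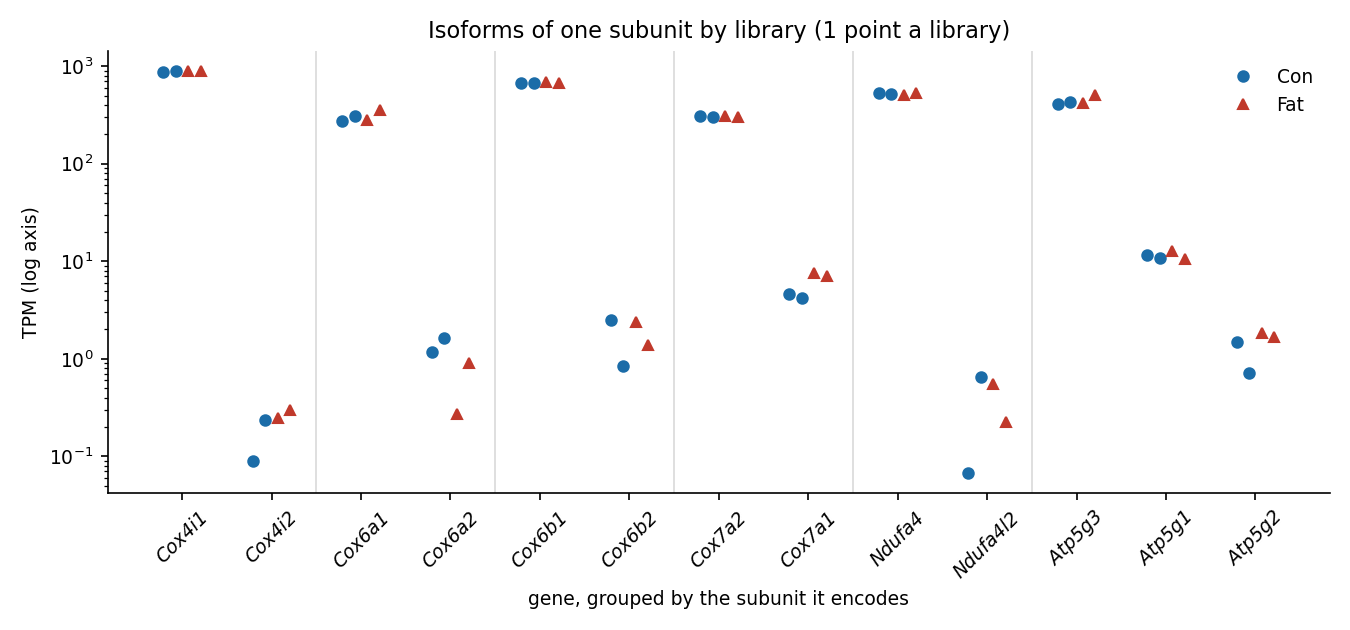
Deposited TPM (vertical log axis) of genes that encode alternative forms of a subunit, with 1 point for each library (blue circles Con, red triangles Fat) and grey lines between subunits. The common form lies 1 or more orders of magnitude above the restricted forms, and both Fat points of Cox7a1 lie above both of its Con points.

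Cox7a1 and Cox6b2 were the restricted forms that passed the filter, and Cox7a1 had the larger log2 fold change. It had 26 and 27 reads in Con and 47 and 48 reads in Fat, or 0.767 and 0.720 CPM against 1.26 and 1.17 CPM. Its libraries did not overlap, and its log2 fold change was 0.64 (SE 0.23, 95% interval 0.10 to 1.18), but it was not called (limma adjusted p = 0.139). With the TPM values it was called, at 0.73 and an adjusted p-value of 0.0215. Most of the listed white adipocyte markers were also higher in Fat. Of the 10 white adipocyte markers, 8 were higher in both Fat libraries and 1 (Lipe) was lower. Of all tested genes, 29.4% were higher in both Fat libraries. Only 3 of the 10 markers passed the filter, of which 2 were called higher by limma. Without Lipe the markers summed to only 0.206 and 0.267 CPM in Con. The 2 called markers thus passed the filter through their Fat libraries alone, and their direction was fixed by it. The sum of the 10 was 20.3 CPM in each Con library and 27.7 and 24.5 CPM in Fat. Adipoq, Lep and Adrb3 had 0 reads in both Con libraries. The 9 markers other than Lipe, which was at 20.11 and 20.02 CPM in Con and was set aside after its values were seen, held 7 and 10 reads in Con and 424 and 240 reads in Fat. The part of adipocyte RNA in the level of Cox7a1 was not tested. Of 6 listed brown adipocyte markers, 2 passed the filter and 1, Dio2, was called higher (9.08 and 10.9 CPM in Con, 26.5 and 20.7 CPM in Fat). The list summed to 10.1 and 11.9 CPM in Con and 27.3 and 21.8 CPM in Fat, almost all of it Dio2. Its defining markers were near 0 in every library, with at most 1 read of Ucp1 and 5 reads of Cidea. The 6 listed muscle markers summed to between 1.013 and 1.12 CPM in Con and between 0.991 and 1.22 CPM in Fat.

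Complex V had a median log2 fold change of 0.00 over 16 tested genes, and 14 of the 16 had an absolute value under 0.1. Its membrane ring is built from identical proteins encoded by Atp5g1, Atp5g2 and Atp5g3, which differ only in the peptide that is removed on import. Atp5g3 was at 127.7 and 135.5 CPM in Con and 127.6 and 154.3 CPM in Fat, and Atp5g1 at 4.63 and 4.34 CPM in Con and 4.96 and 4.10 CPM in Fat. The media overlapped for both, with log2 fold changes of 0.09 (95% interval -0.12 to 0.30) and 0.01 (-0.33 to 0.34). Atp5g2 had 15 and 8 reads in Con and 20 reads in each Fat library, and was under the filter. Atp5s, a factor coupled to ATP synthase, was at 4.87 and 5.30 CPM in Con and at 5.41 and 3.76 CPM in Fat, with an overlap (log2 fold change -0.17, SE 0.18, limma adjusted p = 0.628).

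A few members that encode subunits with no tissue-restricted role were listed at very low levels. Atp5l, the g subunit of ATP synthase, was at 1.67 TPM, Atp5g2 at 1.43 TPM and Cox7c, a subunit of complex IV with no known substitute, at 5.89 TPM. These 3 genes had large shares of sequence in common with other transcripts. Of their stretches of 75 bases, 81.9% for Atp5l, 87.9% for Atp5g2 and 52.1% for Cox7c matched a transcript of another gene in GENCODE vM21 with at most 2 mismatches, and the gene that matched most of them, Atp5l2-ps, Gm10175 and Gm10012, was not listed in the deposited values. Among the 7 members with over 50% of shared stretches the median level was 52.7 TPM, against 146.0 TPM in the other 81 members with a transcript. Among the 25 with over 20% it was 120.8 TPM, against 156.2 TPM in the other 63. Sharing did not always go with a low level, as Atp5h (67.6% shared) was at 188.2 TPM and Uqcrb (58.1%) at 164.3 TPM. Low levels also occurred with little sharing, as Ndufab1, the acyl carrier protein of complex I, was at 9.37 TPM with 11.7% shared and Atp5g1 at 11.4 TPM with 10.7%. How the counting treated such reads is not given in the sources used here, so the levels of these genes are uncertain and the part of shared sequence in them was not tested.

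Their differences between the media are uncertain for the same reason. Atp5l had 11 and 7 reads in Con and 20 and 21 reads in Fat, with the direction fixed by the filter (log2 fold change 0.84, SE 0.36, limma adjusted p = 0.207). Cox7c was at 0.737 and 1.17 CPM in Con and 1.47 and 1.44 CPM in Fat, without overlap (log2 fold change 0.59, SE 0.26, limma adjusted p = 0.223).

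**Figure D3:**
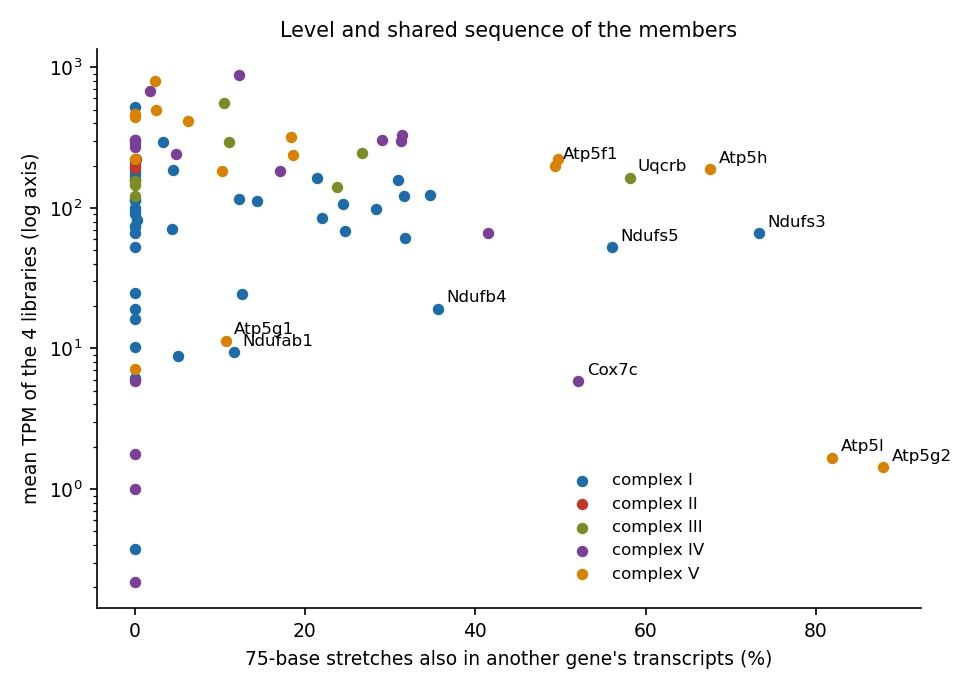
Percentage of a member's 75-base stretches that also match transcripts of another gene (horizontal axis) against its mean TPM over the 4 libraries (vertical log axis), 1 point for each of the 88 members with a transcript, coloured by complex. Atp5l and Atp5g2 lie at the lower right with over 80% shared and under 2 TPM, while Atp5h and Uqcrb share over 50% at more than 100 TPM.

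The members also differed between replicates of the same medium. Among the 76 members with a mean of at least 5 CPM, 64 were higher in Con replicate 2 than in Con replicate 1, and 52 were higher in Fat replicate 2 than in Fat replicate 1. In 46 of them (60.5%) replicate 2 was the higher one in both media, which held for 28.0% of all 9760 genes at that level. The median difference between the replicates was 0.08 on the log2 scale in Con and 0.07 in Fat, and 0.00 in each for all genes at that level. Relative to the mean of the 4 libraries, the median of the 85 tested members was -0.04 and 0.04 in Con and -0.04 and 0.03 in Fat. The summed level of these members was 6210 and 6552 CPM in Con and 6217 and 6437 CPM in Fat, so that the sums of the media overlapped.

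**Figure D4:**
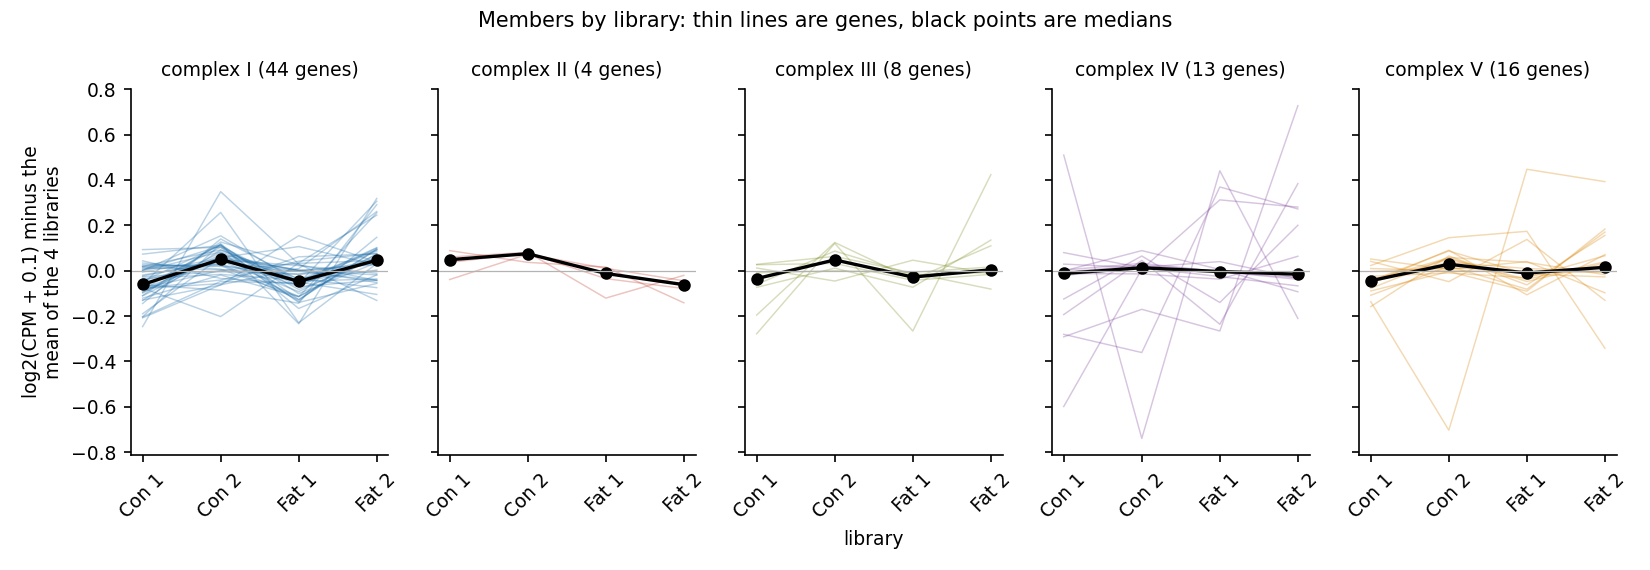
Log2(CPM + 0.1) of each tested member minus its mean over the 4 libraries (vertical axis) in each library (horizontal axis), by complex; thin lines join the values of a gene and black points are the medians. In complexes I, III and V the medians of both second replicates lie above those of both first replicates, whereas in complex II both Fat medians lie below both Con medians.

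Some members had a particularly high value in Fat replicate 2. Among the 76, the 8 largest differences between the Fat replicates, from 0.34 (Cox6a1) to 0.99 (Cox5b) on the log2 scale, all had replicate 2 as the higher one. Under that level the tested members Cox6b2 and Atp5s were higher in Fat replicate 1, by 0.65 and 0.52 on the log2 scale. Cox5b, a subunit of complex IV, was at 13.4 and 14.6 CPM in Con and 13.7 and 27.3 CPM in Fat replicates 1 and 2. Its Fat replicate 2 was thus set apart from the other 3 libraries, and its log2 fold change of 0.46 had a standard error of 0.27 (limma adjusted p = 0.354). Cox8a, another subunit of complex IV, was at 58.2 and 68.7 CPM in Con and 56.5 and 86.8 CPM in Fat. Its log2 fold change was 0.15 (95% interval -0.27 to 0.57). The catalytic subunit Ndufs7 of complex I was at 29.8 and 37.3 CPM in Con and 29.2 and 42.8 CPM in Fat, and the accessory subunit Ndufa6 at 39.3 and 43.8 CPM in Con and 43.6 and 56.0 CPM in Fat. For Cox8a and Ndufs7, as for Uqcrq, the second replicate was the higher one in both media, with Fat replicate 1 the lowest or next to the lowest library. No library or sequencing batch is named in the sources used here.

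**Figure D5:**
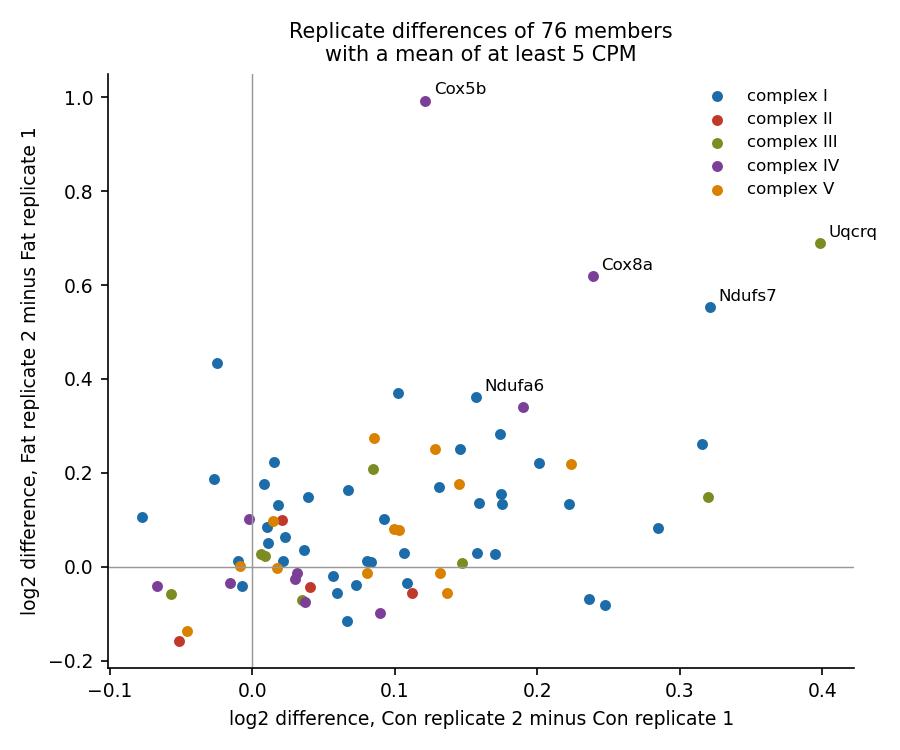
Log2 difference between Con replicates 2 and 1 (horizontal axis) and between Fat replicates 2 and 1 (vertical axis) for each of the 76 members with a mean of at least 5 CPM, coloured by complex; grey lines mark 0. Most points lie in the upper right (46 of 76), and Cox5b, Uqcrq, Cox8a and Ndufs7 have the largest differences between the Fat replicates.

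Other genes of mitochondrial respiration were taken from lists of subunits, assembly factors, regulators and carriers that the name pattern does not cover. Their counts stand beside the 3.99% of all tested genes that limma called higher and the 5.0% that it called lower. Of 7 further genes listed as subunits or cytochromes c, 0 were called by limma, with a median log2 fold change of 0.07. Besides Cyc1 and Cycs this list holds Atpif1, Higd1a and Higd2a, so not all of its genes encode subunits or cytochromes c. Of 40 further assembly factors, 0 were called higher and 1, Coa5, lower, with a median of 0.00. Coa5, a factor of complex IV assembly, was at 282.5 and 270.4 CPM in Con and 222.9 and 200.9 CPM in Fat (log2 fold change -0.39, SE 0.07, limma adjusted p = 0.0158). Its adjusted p-value was 0.0647 without Fat replicate 2 and 0.117 without the mean-variance trend. Of 16 tested regulators of mitochondrial biogenesis, 0 were called, with a median of 0.07. Among them Esrra, the receptor ERR alpha, was at 29.1 and 32.5 CPM in Con and 33.0 and 37.8 CPM in Fat (limma adjusted p = 0.236), and Tfam, a factor that packages mitochondrial DNA, at 20.6 and 21.3 CPM in Con and 20.6 and 23.0 CPM in Fat. These genes are named as well-known regulators and were chosen after their values were seen.

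Among 8 tested carriers and uncoupling proteins, 2 were called higher in Fat and 0 lower. Ucp2, an inner membrane carrier of the uncoupling protein family, was at 984.0 and 1139 CPM in Con and 1732 and 1765 CPM in Fat. Ucp3, a related carrier known to be induced by fatty acids in muscle, was at 0.560 and 0.453 CPM in Con and 1.63 and 2.44 CPM in Fat. For both, the Fat libraries lay above the Con libraries without overlap. The log2 fold changes were 0.72 for Ucp2 (SE 0.09, limma adjusted p = 0.00514) and 1.80 for Ucp3 (SE 0.27, limma adjusted p = 0.0104). Without the mean-variance trend of limma neither was called, with an adjusted p-value of 0.0831 for each. Of the Con libraries of Ucp3 only replicate 1 reached 0.5 CPM, so that it passed the filter with the help of Fat. The white adipocyte markers described with Cox7a1 were also higher in the Fat libraries, and their part in the level of Ucp3 was not tested.

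Among 8 tested genes of other routes by which electrons enter this system, 1 was called higher and 1 lower. Etfb, a subunit of the flavoprotein that takes electrons from fatty acid oxidation, was at 56.2 and 56.5 CPM in Con and 66.3 and 68.3 CPM in Fat (log2 fold change 0.26, SE 0.06, limma adjusted p = 0.0308). Gpd2, the mitochondrial glycerol-3-phosphate dehydrogenase, was at 54.0 and 48.2 CPM in Con and 41.7 and 38.7 CPM in Fat (log2 fold change -0.34, SE 0.08, limma adjusted p = 0.0339). The libraries of the media did not overlap for either gene. Neither was called without Con replicate 1 or without Fat replicate 2, with adjusted p-values of 0.0913 and 0.171 for Etfb and 0.122 and 0.148 for Gpd2, and Etfb was not called without either of the other libraries (0.0632 without Con replicate 2 and 0.0696 without Fat replicate 1). Neither was called without the mean-variance trend (0.136 for Etfb and 0.152 for Gpd2), Etfb was not called by DESeq2 (0.0522) and Gpd2 was not called with the TPM values (0.107).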

How the data were processed

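The authors sequenced single reads of 75 bases. They deposited 17013 genes as CPM, scaled by library size and a factor equal to edgeR's TMM factor, and as TPM, which is scaled for gene length too. The submitters' processing notes list genome build GRCm39, and the paper's text names edgeR. The aligner, the counter and their settings are not given in the sources used here. Libraries were grouped by their titles.

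Whole reads were recovered from the CPM values for 100% of values (within 0.01 of a whole number). The main test was limma 3.58.1 (R 4.3.3) with its mean-variance trend, two-sided, on log2(CPM + 0.1) of genes that reached 0.5 CPM in 2 or more libraries, called at an adjusted p-value under 0.05. Fold changes on this scale understate those of low genes. The quasi-likelihood test of edgeR 4.0.16, run on those reads, called 1138 genes and DESeq2 1.42.0 called 1051, against 1122 with limma. The tests were checked on simulated data. All adjusted p-values are Benjamini-Hochberg values over all genes tested.

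Members and lists were chosen with earlier results of these data known. Named are members called, per complex the 2 with the largest change and the highest TPM, members under the filter, isoform pairs, the Sdh genes, and up to 4 called genes of each other list. Shared stretches of 75 bases, at steps of 5, were found with BWA 0.7.19 in GENCODE vM21 transcripts. Alternatives were other pseudocounts, filters, scalings and tests, a replicate block, a GC and length fit, and each library left out. Python 3.11.15, pandas 2.3.3 and matplotlib 3.10.9 made tables and figures.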

Additional observations from a re-analysis of the deposited data

How the results depend on the processing

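With 2 libraries a group, only changes that are large against the replicate spread can be called. Besides 0 members called, the TPM values called 1 higher (Cox7a1). Leaving out a library gave between 0 and 3 higher and 0 lower. The replicate numbers of the labels share no stated source. The deviations of libraries with the same number correlated at 0.20 over all tested genes and at 0.339 over those at a mean of 5 CPM or more. With the replicate block, limma called 3 members higher (Cox5b, Ndufa6 and Ndufs5) and 1 lower (Ndufs4), among 2520 genes called in all, and edgeR with the block, chosen after seeing the data, 3 higher and 3 lower among 2776 genes called in all, with Sdhb (log2 fold change -0.15, adjusted p = 0.0488) and Ndufs3 added. Ndufs5 stayed at 0.27 with adjusted p-values of 0.042 and 0.035. Without the mean-variance trend limma called 31 of all genes, and with single libraries left out between 529 and 1131. The complex II median was -0.0874 with TPM values and -0.0723 with the GC and length fit removed, alone or with the replicate block, and lay between -0.1166 and -0.0691 with libraries left out. The complex III median lay between -0.0516 and 0.0307 with libraries left out. The complex IV median of 0.03 was -0.0059 for genes at a mean of 5 CPM or more, 0.0583 with TPM values, 0.0432 without assembly factors, and between -0.0246 and 0.0247 with libraries left out. The signs of Atp5b and Atp5g1 turned after rescaling by median ratios (-0.0021 and -0.0017), that of Atp5b with DESeq2 (-0.0023) and that of Cox4i1 with TPM values (0.0137). With single libraries left out, the log2 fold change lay between -0.0336 and 0.0471 for Atp5b, -0.13 and 0.14 for Atp5g1, -0.0438 and 0.23 for Atp5g3, -0.43 and 0.0895 for Atp5s, -0.11 and 0.23 for Cox6a1, -0.39 and 0.85 for Cox6b2, -0.16 and 0.46 for Cox8a, -0.0896 and 0.0221 for Sdhc, -0.0024 and 0.0212 for Uqcrh, and -0.19 and 0.50 for Uqcrq. The causes were not tested.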

Other observations

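The proteins of the mitochondrial ribosome, which makes the subunits encoded by mitochondrial DNA, were compared in the same way. Of 76 tested Mrpl and Mrps genes, 1 was called higher and 2 lower in Fat, with a median log2 fold change of 0.01, where limma called 9.0% of all tested genes. With replicate 1 first, Mrps6 was at 15.0 and 13.4 CPM in Con and 19.6 and 22.5 CPM in Fat (log2 fold change 0.56, limma adjusted p = 0.017). Mrpl13 was at 48.1 and 47.3 CPM in Con and 36.5 and 36.8 CPM in Fat (log2 fold change -0.38, limma adjusted p = 0.0109), and Mrpl27 at 34.7 and 35.1 CPM in Con and 27.2 CPM in each Fat library (log2 fold change -0.36, limma adjusted p = 0.0164). The media did not overlap for any of these 3 genes. Without the mean-variance trend limma called none of these 3 genes, with adjusted p-values of 0.105 for Mrps6, 0.08785 for Mrpl13 and 0.0928 for Mrpl27. Without Fat replicate 2 the log2 fold changes were 0.47 for Mrps6, -0.39 for Mrpl13 and -0.36 for Mrpl27.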
